A study of Arabidopsis thaliana with 4 samples.

Results

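The 9 genes described here encode the main storage proteins of the Arabidopsis thaliana seed: the 4 cruciferins (12S globulins) CRA1, CRU2, CRU3 and AT1G03890, and the 5 seed storage 2S albumins SESA1 to SESA5. They are 9 of the 37885 genes in the deposited count table, and all 9 were found there by gene identifier. They were chosen from the known storage protein genes with their counts in these libraries already seen, above all the counts of replicate 2, so their pattern across libraries is a description and no test of it was made. The study has 1 group of 4 libraries, made from poly(A) RNA of whole, untreated seedlings of the double mutant prt6-1hyt1-1, and labelled as biological replicates 1 to 4. Plants were harvested at an age of 7 days from MS agar without sucrose, under continuous light. In the count table hup40 stands in place of hyt1, and which gene either name denotes is not stated there or in the labels. One title, that of replicate 4, misprints the genotype. Wild-type and prt6-1 seedlings were not analysed here, so nothing below measures an effect of the mutations. The libraries held 24743656 to 26155431 counts, the largest being replicate 2.

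Cruciferins and 2S albumins are made in the maturing embryo, sorted into protein storage vacuoles, cut there into their mature chains, and broken down as the seed germinates to feed the seedling. Their genes are switched on by the B3-domain factors ABI3, FUS3 and LEC2, which bind RY elements, together with bZIP factors that bind elements with an ACGT centre. The VAL repressors and Polycomb complexes keep the seed programme silent after germination. PRT6, the ubiquitin ligase of the Arg/N-degron pathway, is known in this species for roles in seed germination, abscisic acid response and the use of stored oil in seedlings.

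Of the summed storage protein level over the 4 libraries, 91.4% was in replicate 2. The 9 genes together had 4024 counts in replicate 2 (95% Poisson interval 3901 to 4150), 165 in replicate 1 (141 to 192), 99 in replicate 3 (80.5 to 121) and 103 in replicate 4 (84.1 to 125). In CPM (counts scaled to a common library size, here by TMM), their sum was 155.4 in replicate 2, against 6.60 in replicate 1, 3.89 in replicate 3 and 4.07 in replicate 4. The mean over the libraries was 42.5 ± 75.3 CPM (SD, n = 4), and it was 4.87 CPM without replicate 2. The ratio of replicate 2 to replicate 1, the next highest library, was 23.5 (20.1 to 27.7). Intervals cover counting error only, and PCR duplicates would make them too narrow. Even in replicate 2 the 9 genes took only 0.0154% of the counts. In whole-seedling RNA, few cells with much transcript and many cells with little cannot be told apart.

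**Figure D1:**
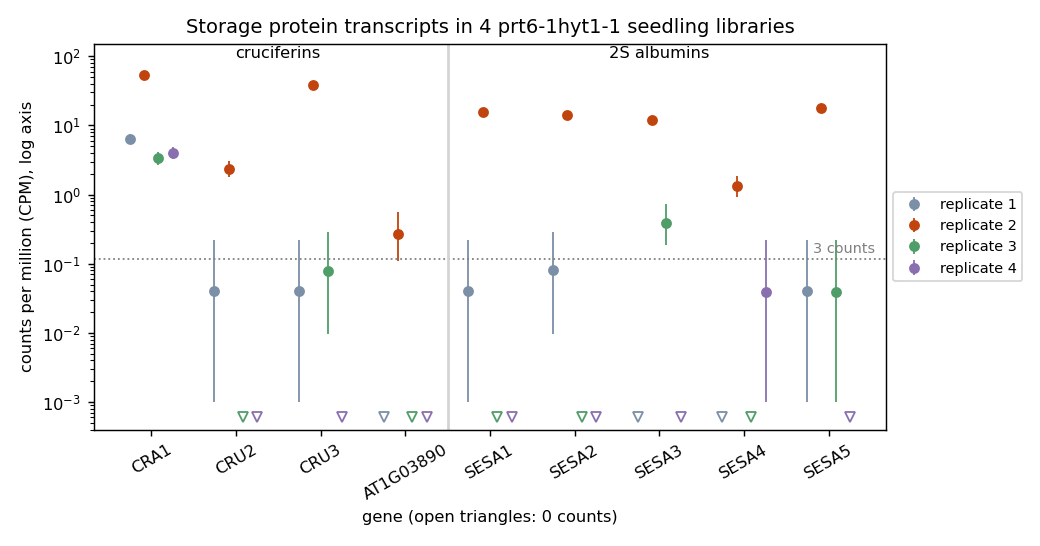
Level of each gene in CPM on a log axis, with 95% Poisson intervals, in replicates 1 to 4 of prt6-1hyt1-1 seedlings. Open triangles mark 0 counts and the dotted line marks 3 counts. Replicate 2 is the highest library for all 9 genes, and CRA1 alone has more than 10 counts in the other 3 libraries.

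A simple rule put these values beside the rest of the table. A gene was called when its highest library stood at least 4-fold above its next highest, in CPM with 0.5 added to each count, and held at least 10 counts. Of the 37885 genes 71 were called (0.187%): 46 with replicate 2 highest (0.121%), 5 with replicate 1 (0.0132%), 6 with replicate 3 (0.0158%) and 14 with replicate 4 (0.037%). Of the 9 storage protein genes 8 were called, all with replicate 2 highest. The exception was AT1G03890, which had too few counts. Since replicate 2 was in view when the genes were chosen, nothing is read from that contrast with the background. Only CRA1 passed edgeR's expression filter, so the 9 genes are described here without it. With 1 group, that filter asks for about 10 counts in every library, so a gene high in replicate 2 alone fails it.

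CRA1 (AT5G44120, chromosome 5, 17756238 to 17758336, minus strand, TAIR10.1) encodes a 12S cruciferin and was the highest of the 9 genes in every library. It had 1394 counts in replicate 2, against 159 in replicate 1, 86 in replicate 3 and 102 in replicate 4. These are 53.8 CPM in replicate 2, against 6.36, 3.38 and 4.03 CPM in replicates 1, 3 and 4, a mean of 16.9 ± 24.7 CPM (SD, n = 4). CRA1 was thus the only storage protein gene with a clear signal in all 4 libraries. Replicate 2 exceeded replicate 1 by 8.46-fold (95% interval 7.17 to 10.03). In TPM, a level per exon length, CRA1 stood above 90.1% of the genes with a length in replicate 2, and above 60.9%, 55.1% and 56.2% of them in replicates 1, 3 and 4. Those genes include the ones without a count.

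CRU3 (AT4G28520, chromosome 4, 14087556 to 14089796, plus strand), another 12S cruciferin gene, was close to CRA1 in replicate 2 and nearly absent elsewhere. It had 998 counts in replicate 2, against 1 in replicate 1, 2 in replicate 3 and 0 in replicate 4. Its level was 38.5 CPM in replicate 2 and 0.0786 CPM in replicate 3, a ratio of 490 (135 to 4052). CRU2 (AT1G03880, chromosome 1, 985751 to 988146, plus strand), the third of the main cruciferin genes, had 61 counts in replicate 2, 1 in replicate 1 and 0 in the others. Its neighbour AT1G03890 (chromosome 1, 989198 to 991020, plus strand), annotated in the same cruciferin family, had 7 counts in replicate 2 and 0 in the others. Against a floor of 3 counts per library, its CPM in replicate 2 was 2.25-fold higher, with no counting error set on the 7 counts. Their Poisson interval, 2.81 to 14.4 counts, reaches below that floor, so 2.25 is not a lower bound on the ratio. The 4 cruciferin genes summed to 2460 counts in replicate 2, against 161, 88 and 102 in replicates 1, 3 and 4.

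The bases before the start of CRA1 and CRU3, the highest cruciferin genes in replicate 2, are shown because they differ in motifs. Each is the 250 bases before the annotated gene start, 5′ to 3′ on the gene's strand, from the RefSeq TAIR10.1 genome (chr5:17758337-17758586, minus strand, for CRA1, and chr4:14087306-14087555, plus strand, for CRU3). Capitals mark the RY core CATGCA and the ABRE-type core ACGTG on either strand.
CRA1: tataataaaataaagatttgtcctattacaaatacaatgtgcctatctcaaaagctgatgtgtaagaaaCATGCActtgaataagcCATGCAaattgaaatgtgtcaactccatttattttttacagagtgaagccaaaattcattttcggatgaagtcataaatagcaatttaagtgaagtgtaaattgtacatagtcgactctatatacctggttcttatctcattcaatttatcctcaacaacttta
CRU3: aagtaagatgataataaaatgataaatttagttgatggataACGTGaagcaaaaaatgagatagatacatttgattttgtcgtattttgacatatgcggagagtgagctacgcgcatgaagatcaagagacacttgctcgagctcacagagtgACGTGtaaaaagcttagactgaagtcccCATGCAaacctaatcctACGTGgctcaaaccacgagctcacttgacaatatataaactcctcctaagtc

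CRA1 held 2 RY cores, at positions -181 and -164 relative to the start, and no ABRE-type core. CRU3 held 1 RY core at -69, between ABRE-type cores at -97 and -52, and a further ABRE-type core at -209. AT1G03890 held 1 RY core, at -129. CRA1 and CRU3 were both highest in replicate 2, and the ABRE-type core was present in CRU3 but not in CRA1. These windows rest on the annotated gene starts. CRA1 has 3 annotated transcripts and CRU3 has 5, and whether those starts are the ones in use was not tested.

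The 2S albumins are small, sulphur-rich storage proteins, each made as a precursor that is cut into 2 chains. All 5 genes were highest in replicate 2. SESA5 (AT5G54740, chromosome 5, 22238358 to 22239187, minus strand) had 460 counts there, against 1 in replicate 1, 1 in replicate 3 and 0 in replicate 4. SESA1 (AT4G27140, chromosome 4, 13607329 to 13608031, plus strand) had 403 counts in replicate 2, against 1 in replicate 1 and 0 in the others. SESA2 (AT4G27150, 13609341 to 13610075) had 362 counts in replicate 2, against 2 in replicate 1 and 0 in the others. In replicates 1, 3 and 4 these 3 genes never exceeded 2 counts.

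SESA3 (AT4G27160, 13611796 to 13612563) had 305 counts in replicate 2, against 10 in replicate 3 and 0 in replicates 1 and 4. It was the only albumin gene with more than 3 counts outside replicate 2. Its ratio of replicate 2 to replicate 3 was 29.9 (16.1 to 63.1), beside ratios to the next library of 444 (79.3 to 17570) for SESA5, 389 (69.4 to 15390) for SESA1 and 175 (48.0 to 1447) for SESA2. SESA4 (AT4G27170, 13613596 to 13614283) was the lowest albumin gene, with 34 counts in replicate 2, against 1 in replicate 4 and 0 in replicates 1 and 3. The 5 albumin genes summed to 60.4 CPM in replicate 2, against 0.160, 0.433 and 0.0395 CPM in replicates 1, 3 and 4. A count of 0 allows up to 3 counts, or between 0.116 and 0.120 CPM depending on the library.

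The albumin promoters shared an arrangement that the cruciferin promoters lacked. The stretch from 95 to 41 bases before each gene start is shown with RY cores and ABRE-type cores in capitals on either strand, since the same pair of motifs recurs in all 5. It lies at chr4:13607234-13607288 for SESA1, chr4:13609246-13609300 for SESA2, chr4:13611701-13611755 for SESA3, chr4:13613501-13613555 for SESA4 (all plus strand) and chr5:22239228-22239282 for SESA5 (minus strand), on TAIR10.1.
SESA1: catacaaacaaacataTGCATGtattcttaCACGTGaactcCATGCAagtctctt
SESA2: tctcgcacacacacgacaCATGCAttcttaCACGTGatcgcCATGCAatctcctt
SESA3: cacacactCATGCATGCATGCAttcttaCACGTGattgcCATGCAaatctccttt
SESA4: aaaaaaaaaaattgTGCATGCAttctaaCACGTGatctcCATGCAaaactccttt
SESA5: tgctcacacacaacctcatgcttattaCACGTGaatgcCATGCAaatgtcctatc

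Each of the 5 held the G-box CACGTG, a full palindrome that contains the ABRE-type core on both strands, followed after 5 bases by the RY core CATGCA. The G-box began between positions -68 and -65. Searched on both strands of the same window (250 bases before to 50 after the start) in 27443 protein-coding genes, this pair at this spacing was found in 9 promoters (0.033%), and 5 of these were the albumin genes. The spacing was chosen after the 5 sequences were seen, so the share is a description. The other 4 promoters belonged to the cupin gene AT2G28490, with 104 counts in replicate 2, against 5, 10 and 7 in replicates 1, 3 and 4, to AT1G54860, with 4 counts in replicate 2 and 0 in the others, to AT2G38610, with 530 counts in replicate 2, against 479, 446 and 521, and to PSB28 (AT4G28660), with 5691 counts in replicate 2, against 5157, 6060 and 5240. So 2 genes with the pair were high or seen only in replicate 2, and another 2 were of like level in all libraries. Over all 9 storage protein genes, an RY core was present in 8 promoters, against 9.72% of all promoters, and the ABRE-type core in 6, against 26.7%. Both together were present in 6, against 2.91%. The RY octamer CATGCATG, which contains 2 overlapping RY cores, was found upstream of SESA3, SESA4 and SESA5, against 0.88% of all promoters. SESA1 to SESA4 lie in tandem, and their coding sequences are 82.6% to 94.1% identical. Their promoters are therefore not independent cases in these counts or in that of the pair. A match to these letters is not evidence that a factor bound there.

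**Figure D2:**
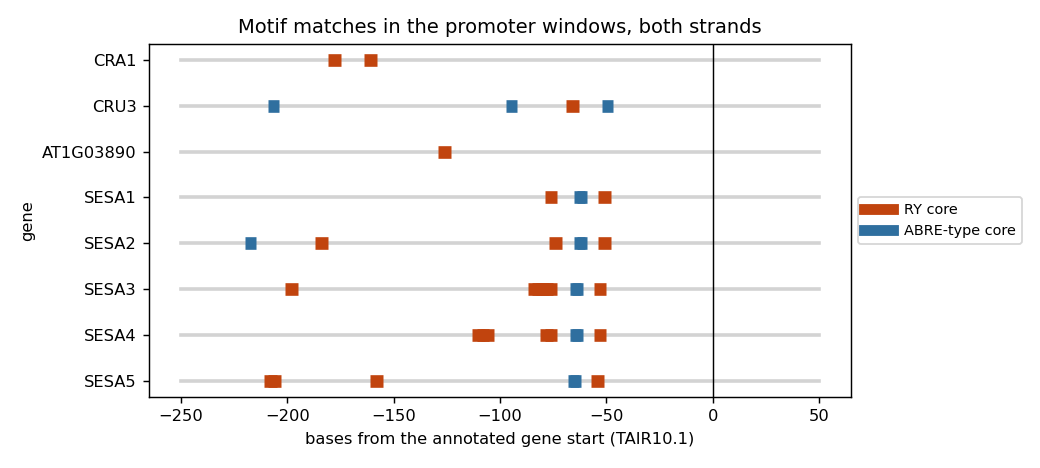
Position of RY cores and ABRE-type cores, on either strand, from 250 bases before to 50 after the annotated start of 8 of the 9 genes. In the 5 albumin genes an ABRE-type core within a G-box lies just before an RY core at positions -57 to -54. CRA1 and AT1G03890 show RY cores only.

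The order of levels between genes was read per exon length, in TPM, within replicate 2. CRA1 was highest at 44.3 TPM (95% counting interval 42.0 to 46.7), and its interval did not overlap the next. SESA1 followed at 34.0 TPM (30.8 to 37.5), CRU3 at 32.9 TPM (30.9 to 35.0) and SESA5 at 32.9 TPM (29.9 to 36.0), which could not be ordered within counting error. SESA2 was at 29.2 TPM (26.3 to 32.4), overlapping SESA1, CRU3 and SESA5 above it and SESA3, at 23.6 TPM (21.0 to 26.4), below it. There was then a gap to SESA4 at 2.97 TPM (2.06 to 4.15) and CRU2 at 2.23 TPM (1.71 to 2.87), whose intervals overlapped, and AT1G03890 came last at 0.292 TPM (0.118 to 0.602). For reference, the median of all 37882 genes with a length was 1.41 TPM in replicate 2. That set includes genes without a count, and 24288 genes had a count there. The 6 leading genes were above 82.6% to 90.1% of the whole set, while SESA4 and CRU2 lay close to its middle, above 55.5% and 53.2%. By rank SESA4 was number 16870 and CRU2 number 17728, so both lay in the lower part of the genes with a count.

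**Figure D3:**
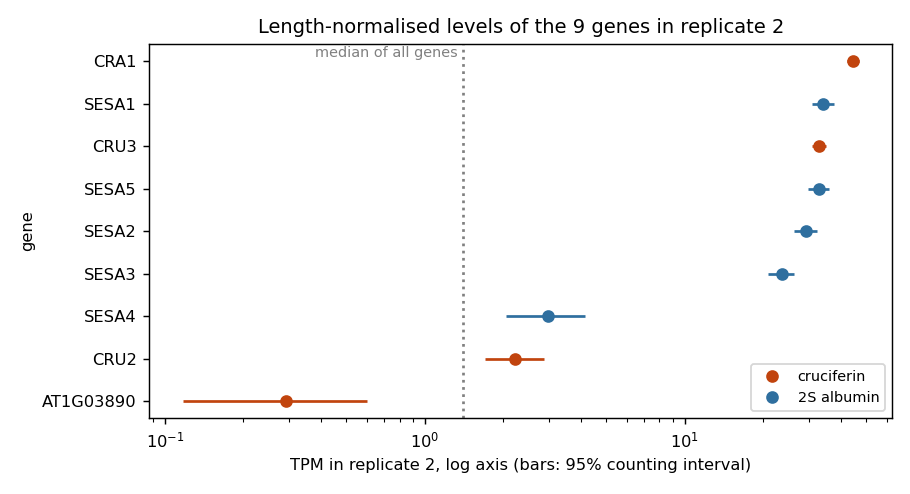
TPM of each gene in replicate 2 on a log axis, with 95% counting intervals, cruciferins and 2S albumins in different colours. The dotted line is the median of all genes, those without a count included, 1.41 TPM. The 6 leading genes lie between 23.6 and 44.3 TPM, and SESA4, CRU2 and AT1G03890 lie at 2.97 TPM or below.

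The make-up of the storage transcripts differed between replicate 2 and the other libraries. CRA1 made up 34.6% of the 9 genes' counts in replicate 2 (exact 95% binomial interval 33.2 to 36.1), against 96.4% (92.3 to 98.7) in replicate 1, 86.9% (78.6 to 92.8) in replicate 3 and 99.03% (94.7 to 99.98) in replicate 4. Albumins made up 38.9% (37.4 to 40.4) in replicate 2, against 2.42% (0.664 to 6.09), 11.1% (5.68 to 19.0) and 0.971% (0.0246 to 5.29) in replicates 1, 3 and 4. Per exon length the albumin share was 60.6% in replicate 2, against 5.83%, 23.1% and 2.59% in replicates 1, 3 and 4. The replicate 2 interval did not overlap that of any other library for either share. Put as counts, at the CRA1 to CRU3 ratio of replicate 2 the 159 CRA1 counts of replicate 1 would go with 114 CRU3 counts, and 1 was found. In replicates 3 and 4 the same ratio would give 61.6 and 73.0 CRU3 counts, and 2 and 0 were found. For the 5 albumins the ratio would give 178, 96.5 and 114 counts in replicates 1, 3 and 4, and 4, 11 and 1 were found. The proportions of CRA1, CRU3 and the albumins thus differed between replicate 2 and the other libraries by more than counting error. The reason for this was not tested.

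**Figure D4:**
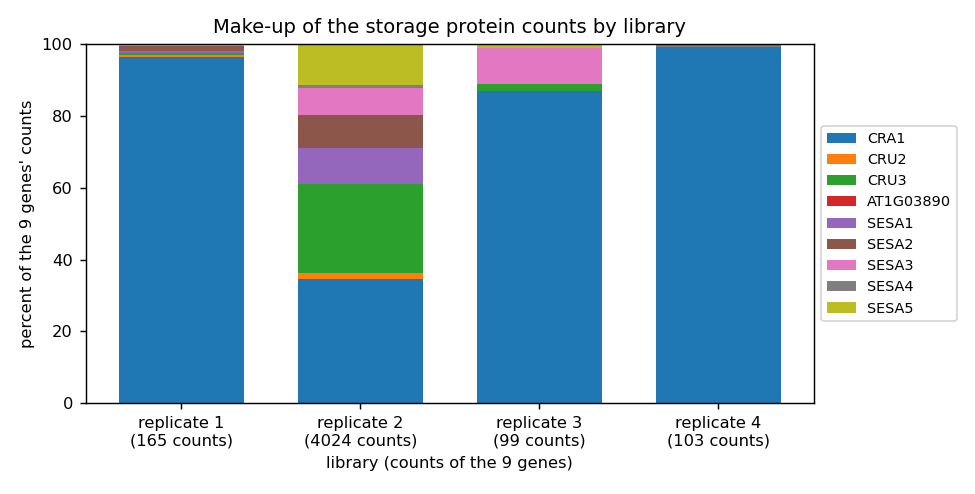
Share of each gene in the counts of the 9 genes, by library, with the counts of the 9 genes under each bar. CRA1 fills 86.9% to 99.03% of the bars of replicates 1, 3 and 4 but 34.6% of the bar of replicate 2, where CRU3 and the albumins take most of the rest.

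Reads shared between copies could blur which gene a count belongs to, so the sequences were compared. The coding sequences of SESA2 and SESA3 were 94.1% identical, and those of SESA2 and SESA4 90.1%. SESA5 was more distant, at 66.9% to 68.1% identity to the other albumins, and the cruciferins were 61.7% to 76.4% identical to each other. Within either family, the longest identical run between a pair of transcripts was 49 bases, in the coding sequence of SESA2 and SESA3, and it is shown because reads within it cannot be assigned to either gene.
SESA2 and SESA3: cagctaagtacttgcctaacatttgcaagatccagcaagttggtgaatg

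No stretch of 50 bases of any of the 9 transcripts occurred elsewhere on the nuclear chromosomes. None of the 9 genes overlapped another annotated gene. The split of reads between SESA1, SESA2, SESA3 and SESA4 is less certain than for the other genes if reads were shorter than these runs or mismatches were allowed.

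The high counts in replicate 2 did not extend to neighbouring genes. SESA1 to SESA4 lie in tandem within 6955 bases of chromosome 4, and CRU2 and AT1G03890 within 5270 bases of chromosome 1. Of the 30 nearest protein-coding neighbours, 3 on each side of each locus, 0 were called. Only 0.187% of all genes were called, so 0 is the common outcome for so few genes. The 25 neighbours with at least 10 counts had a ratio of highest to next library between 1.005 and 1.22. The rest had too few counts for a call. AT4G27130, next to SESA1, had 2094 counts in replicate 2, against 1798, 2125 and 2060 in replicates 1, 3 and 4. The kinesin gene ATK2 (AT4G27180), next to SESA4, had 1234 counts in replicate 2, against 1414, 1245 and 1307.

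Other genes of the seed reserves shared the pattern in part. Of the 8 listed oil body genes 5 reached 10 counts and 3 were called, all highest in replicate 2, and their list summed to 10.7 CPM in replicate 2, against 1.48, 1.97 and 1.34 CPM in replicates 1, 3 and 4. The oleosin gene OLEO1 (AT4G25140), whose protein coats oil bodies, had 123 counts in replicate 2, against 2, 3 and 0. OLEO2 (AT5G40420) had 105 counts, against 10, 12 and 11, and the caleosin gene ATS1 (AT4G26740) had 18, against 0, 2 and 0. AT3G01570, another oleosin gene, did not share it, with 20 counts in replicate 2, against 22, 23 and 13.

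Of 6 vicilin-like and other cupin genes 4 reached 10 counts, and of these AT2G28490 alone was called. PAP85 (AT3G22640), a vicilin-like storage protein gene, was just under 4-fold, with 50 counts in replicate 2, against 3, 12 and 5. The list summed to 43.4 CPM in replicate 2, against 30.5, 33.5 and 37.8 CPM, and most of this came from AT1G07750, with 918 counts in replicate 2, against 736, 792 and 906. Of 19 late embryo genes 15 reached 10 counts and 4 were called: M17 (AT2G41260), with 156 counts in replicate 2, against 21, 0 and 0, AT5G44310, with 31, against 6, 1 and 7, AT2G42560, with 25, against 1, 2 and 1, and the dehydrin gene LEA (AT2G21490), with 11, against 0, 0 and 1. RAB18 (AT5G66400), a dehydrin gene of the abscisic acid response and the highest of the list, had 321 counts in replicate 2, against 94, 131 and 117, and was not called. The late embryo list summed to 38.7 CPM in replicate 2, against 13.8, 18.1 and 16.3 CPM.

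Of the 13 activators of seed maturation, 7 reached the 10 counts that a call needs, and 0 of these were called. The other 6, among them FUS3, LEC2 and LEC1, could not be called, and together had 7 counts in replicate 2, against 6, 3 and 7 in replicates 1, 3 and 4. ABI3 (AT3G24650) had 33 counts in replicate 2, against 15, 34 and 15 in replicates 1, 3 and 4. FUS3 (AT3G26790) had 0 counts in replicate 2, against 4, 0 and 0, LEC2 (AT1G28300) had 5, against 2, 2 and 0, and LEC1 (AT1G21970) had 0, against 0, 0 and 1. The bZIP gene ABI5 (AT2G36270) had 49 counts in replicate 2, against 75, 46 and 48, and EEL (AT2G41070) had 73, against 73, 48 and 72. BZIP53 (AT3G62420), the highest of the list, had 1881 counts in replicate 2, against 1865, 1846 and 1968. The whole list summed to 173.5 CPM in replicate 2, against 171.1, 171.4 and 172.7 CPM, and 3 bZIP genes, BZIP53, BZIP25 and BZO2H1, made up 93.0% of its mean sum. Only 0.187% of all genes were called, so 0 called is the common outcome for a list this short, here and in the lists below.

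All 11 repressors reached 10 counts and 0 were called, and they summed to 302 CPM in replicate 2, against 337, 296 and 310.2 CPM. HSI2 (AT2G30470, also called VAL1), a B3-domain repressor that recognises RY elements, had 701 counts in replicate 2, against 668, 672 and 618. The chromatin remodeller gene PKL (AT2G25170), the highest of the list, had 1984 counts, against 2189, 1810 and 1899. The Polycomb gene FIE (AT3G20740) had 434, against 583, 577 and 510, and CLF (AT2G23380) had 518, against 580, 476 and 575.

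Genes that handle the proteins were expressed at like levels in all libraries. Of 11 sorting and processing genes 0 were called, and they summed to 899 CPM in replicate 2, against 816, 850.4 and 828 CPM. In replicate 2, 9 of the 11 were at their highest, beside 22.9% of all genes with at least 10 counts in a library, though by small margins: the median log2 ratio of highest to next library was 0.09, as for all such genes. The seed-type vacuolar processing enzyme gene BETA-VPE (AT1G62710), which cuts storage protein precursors, had 324 counts in replicate 2, against 224, 267 and 235. The aspartic protease gene APA1 (AT1G11910), the highest of the list, had 12548 counts, against 11136, 11614 and 11169. Of 5 protease genes of protein mobilisation 0 were called, and the cysteine protease gene RD21A (AT1G47128) led them with 13462 counts in replicate 2, against 11067, 12857 and 12140. These 5 summed to 978 CPM in replicate 2, against 854, 955 and 909 CPM. Of 6 genes of oil breakdown and the glyoxylate cycle 0 were called, with a sum of 1057 CPM in replicate 2, against 915, 1006 and 874 CPM. In replicate 2, 4 of these 6 genes and 2 of the 5 protease genes were at their highest. Of the oil and glyoxylate genes PCK1 (AT4G37870) was highest on average, with 8434 counts in replicate 2, against 7724, 7826 and 7349.

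Markers of other seed tissues were counted in the same way. Of 8 seed coat genes only 3 reached 10 counts, and 0 of these were called. The list summed to 116.5 CPM in replicate 2, against 116.6, 108.6 and 112 CPM, but MUM4, MUM2 and GL2 made up 99.7% of its mean sum. The other 5 genes could not be called, and together had 8 counts in replicate 2, against 13, 4 and 7. Among the more tissue-restricted of them, BAN (AT1G61720) had 0 counts in every library, TT12 (AT3G59030) had 0 in replicate 2, against 2, 1 and 0, and TT10 (AT5G48100) had 8, against 7, 0 and 4. MUM4 (AT1G53500), the highest, had 1409 counts in replicate 2, against 1456, 1281 and 1331. Of 4 endosperm genes EPR1 (AT2G27380), an extensin-like gene of the germinating endosperm, was called, with 132 counts in replicate 2, against 6, 14 and 13. AT1G54860, another of the 4, had 4 counts in replicate 2 and 0 in the others, and FWA (AT4G25530) had 1, against 1, 3 and 1, both too few for a call. DEAR2 (AT5G67190) led that list, with 358 counts in replicate 2, against 298, 384 and 316, and the list summed to 19.1 CPM in replicate 2, against 12.2, 15.8 and 13.0 CPM. Whether seed material among the seedlings gave storage protein counts was not tested.

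Among genes with at least 10 counts in a library, the median log2 ratio of highest to next library was 6.22 for the 8 storage protein genes, beside 0.09 for all 21504 such genes. It was 2.86 for oil body genes, 1.11 for the cupin list, 1.26 for late embryo genes and 1.65 for the endosperm list, which rests on 2 genes. It was 0.06 for activators, 0.11 for repressors, 0.05 for proteases and for seed coat genes, and 0.07 for the oil and glyoxylate list. The storage protein genes were chosen with replicate 2 in view, and of the 8 all but CRA1 and SESA3 reached 10 counts only there. A high ratio was therefore largely fixed in advance, and nothing is read from its contrast with the background.

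**Figure D5:**
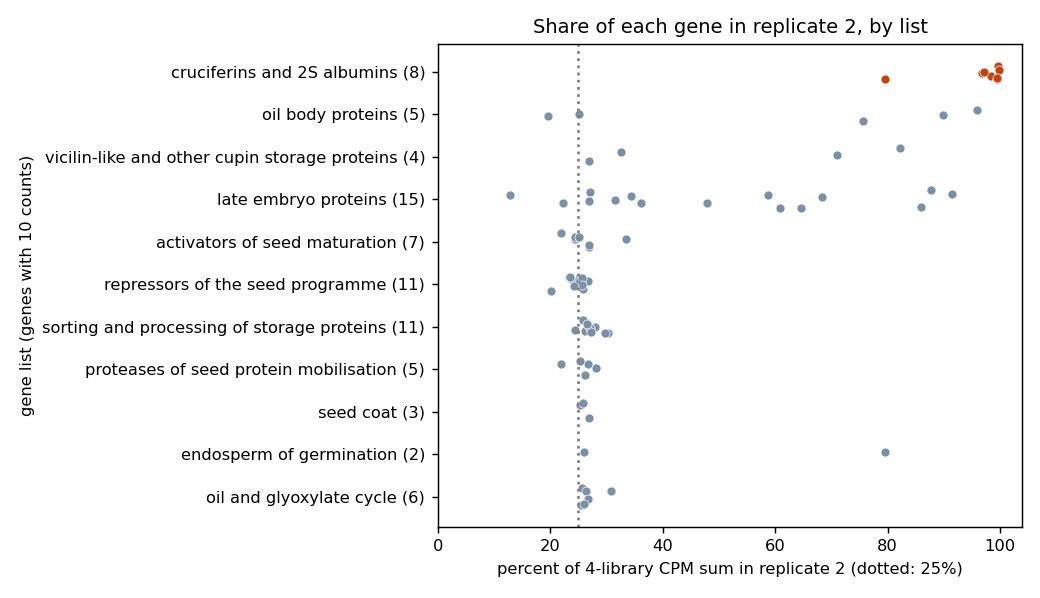
Share of each gene's summed CPM over the 4 libraries that lies in replicate 2, for genes with at least 10 counts in a library, by list. The number of genes is in brackets and the dotted line is an equal share. Storage protein genes lie at 79.6% or more, oil body and late embryo genes are spread, and regulators, processing genes and proteases lie near the line.

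Likeness of pattern was measured as the share of a gene's summed CPM found in replicate 2, over the 4 libraries, for the 20392 genes with at least 50 counts in all. The median share was 24.96% and the 99th percentile 35.1%, and 7 of the 9 storage protein genes reached that count. Among the storage protein genes the share was 79.6% for CRA1 and 96.8% or more for the other 8, of which SESA4 and AT1G03890 had under 50 counts. Only CRA1 would reach 50 counts without replicate 2. The counts of replicate 2 were in view when these genes were chosen, so nothing is read from the distance of their shares to the median. Outside the 9 storage protein genes, the 15 genes with the largest share ran from AT1G59359, at 98.2%, to LpxC1 (AT1G24793), at 72.0%. With OLEO1, OLEO2, M17, AT2G28490 and EPR1, described above, they included the seed-type vacuolar aquaporin gene TIP3;1 (AT1G73190), with 71 counts in replicate 2, against 3, 4 and 4, and the nitrile-specifier gene NSP2 (AT2G33070), with 224, against 9, 9 and 1. The defensin gene LCR67 (AT1G75830) had 360 counts, against 18, 30 and 22. AT5G35660 had 132, against 3, 0 and 1, AT2G05580 had 85, against 5, 2 and 2, and AT1G54870 had 61, against 0, 3 and 4.

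The other 4 of these 15 share sequence with copies elsewhere, so their counts are uncertain. AT1G59359 had 96.3% of its 50-base stretches in other loci, the peroxidase gene AT1G05250 90.2%, LpxC1 79.1% and AT5G50530 65.9%. AT1G05250 had 96 counts in replicate 2, against 6, 2 and 3, while its near-copy AT1G05240 had 4 in replicate 2, against 4, 1 and 96 in replicates 1, 3 and 4. None of the 9 storage protein genes has a copy of this kind.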

How the data were processed

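The authors deposited raw read counts per gene for 4 libraries. HISAT2 2.1.0, featureCounts 1.6.0 and TAIR10 are named in the submitters' processing notes. No source used here gives the strand setting, annotation release or treatment of multiply mapped reads. If such reads were dropped, runs shared by SESA genes are undercounted. Columns were tied to samples through prt6-1 and the number of the replicate in their names. Library sizes were scaled with edgeR 4.0.16 (TMM) in R 4.3.3, with DESeq2 1.42.0 size factors as an alternative. TPM used the count plus 0.5 over the merged exon length in RefSeq TAIR10.1, where 37882 of 37885 identifiers were found. Positions and sequences come from TAIR10.1 alone, and counts were used as deposited. Coding sequences were aligned globally with Biopython 1.88. Intervals are exact 95% Poisson or Clopper-Pearson intervals from SciPy 1.17.1. There is 1 group, so no test between groups was made.

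Genes named were the 9, those called and the highest in each list, the regulators, and the 15 most alike in pattern. Chosen after their values were seen were the neighbours AT4G27130 and ATK2, the near-copy AT1G05240, the carriers of the motif pair, AT3G01570, PAP85, BETA-VPE, MUM2, GL2, BAN, TT10, TT12 and FWA. The members, the 10 lists of 91 other genes and the rules were chosen with earlier results of these data known. One upstream sequence is not reported here.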

Additional observations from a re-analysis of the deposited data

Results flagged for a closer look

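In a group of 4 libraries, a value was marked when the gap between the highest or lowest library and its nearest neighbour exceeded Dixon's critical fraction of the whole range. A rate of about 1 in 20 marks by chance holds for normally spread values not chosen by size, so it is no yardstick here. Of 42 values examined, 32 were marked, all because replicate 2 was the highest library, and they are not independent of each other. The genes and list sums were chosen with replicate 2 in view, and most of the genes were picked for being high in it. Their marks were therefore largely fixed in advance. A gene with counts in replicate 2 alone, such as AT1G03890, is always marked. The marked level of replicate 2 was 53.8 CPM for CRA1, 38.5 for CRU3, 2.36 for CRU2, 0.270 for AT1G03890, 17.8 for SESA5, 15.6 for SESA1, 14.0 for SESA2, 11.8 for SESA3 and 1.31 for SESA4. The sums marked were 155.4 CPM for the 9 genes, 94.98 for the cruciferins, 60.4 for the albumins, 101.5 for the 9 without CRA1 and 10.7 for the oil body list. Listed genes were marked at 4.75 CPM for OLEO1, 4.05 for OLEO2, 0.695 for ATS1, 6.02 for M17, 0.425 for LEA, 0.965 for AT2G42560, 4.02 for AT2G28490 and 5.10 for EPR1. The remaining marks were 2.16 CPM for AT1G59359, 5.10 for AT5G35660, 8.65 for NSP2, 3.28 for AT2G05580, 2.36 for AT1G54870, 3.71 for AT1G05250, 2.74 for TIP3;1, 13.9 for LCR67, 4.56 for AT5G50530 and 3.36 for LpxC1.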

How the results depend on the processing

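Apart from the mean sum, 33 values were recomputed under other settings, and 21 stayed within counting error of the value reported or within 1.5 times its count. The SD of the mean sum, 75.3 CPM, is larger than the mean, so no setting could move it beyond its spread. DESeq2 size factors and unscaled totals moved no result, with the 9 genes at 42.5 and 42.1 CPM on average. Restricting to genes past the edgeR filter left CRA1 as the only member. This gave a ratio of 8.46 for highest over next library, 1 called member and 3 called genes in all. The filter asks for about 10 counts in every library, so it removes the other 8 members and most genes high in 1 library alone. The ratio ran from 1.62 without replicate 2 to 38.2 without replicate 1, and the mean sum from 4.87 CPM without replicate 2 to 55.6 CPM without replicate 3. With CRA1 alone, the gene past the filter, the mean was 16.9 CPM. The number of members called ran from 1, SESA3, without replicate 2, to 8, and that of all genes called from 73 without replicate 2 to 97 without replicate 1. The CRA1 share of the summed level in replicate 2 was 21.9% per exon length, 20.5% per coding length and 34.6% without length, because CRA1 is longer than the albumins. Of all genes, 302 were called at 2-fold, 27 at 10-fold, 24 with at least 50 counts and 41 with 2 added to each count, against 71. At 10-fold CRA1 was no longer called, and with at least 50 counts SESA4 was not. Members past a filter of at least 10 counts in 1 library numbered 8. No paired analysis was possible because there is only 1 group. Depth limits AT1G03890, SESA4 and every albumin outside replicate 2, where counts were 10 or fewer.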

Other observations

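Some genes were called with another library highest, and they are named here after their values were seen. In replicate 3 the most uneven was AT1G18020, with 161 counts, against 2, 2 and 1 in replicates 1, 2 and 4. In replicate 1 it was AT5G28340, with 36 counts, against 3, 1 and 5 in replicates 2, 3 and 4. No storage protein gene and no gene of the 10 other lists was called with a library other than replicate 2 highest. Of all genes, 0.0132% were called with replicate 1 highest, 0.0158% with replicate 3 and 0.037% with replicate 4. An absence of such calls is thus the common outcome for so few genes, and nothing is read from it. M17 had 156 counts in replicate 2 and 21 in replicate 1 but 0 in replicates 3 and 4.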
